A study of Rattus norvegicus with 30 samples.

Results

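Peaks of acetylated histone H4 were set against peaks of all histone H4 in the cortex of rat embryos from control dams. The 173786 control H4K16Ac domains and 196878 control pan H4 intervals made up 370664 of the 1417597 regions in the 10 peak lists of the series. All regions of the 2 control lists were taken, with no choice by size or strength, and a domain and an interval were counted as overlapping when they shared at least 1 bp. ChIP-seq (chromatin immunoprecipitation followed by sequencing) was done on the frontal cortex of Wistar embryos at E14.5. The dams were given normal chow (control) or a diet with 60% of calories from fat (HFD) and were mated with males on chow. Each of 5 antibodies was used on 3 libraries per diet, 30 in all, and the libraries of each antibody and diet were pooled into 1 list. The 6 control libraries of H4K16Ac and pan H4 are described here, and the lists of control total H3, H3K4me3 and H3K27me3 and of the HFD embryos serve as comparison. The tissue is a mixture of progenitors, neurons and other cells, and the lists neither separate them nor carry gene names, so the tissue was not checked against its markers.

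Histone H4 is a core protein of every nucleosome, and its lysine 16 lies in the tail that reaches out of the particle. Acetylation of this residue, placed mainly by the acetyltransferase MOF (KAT8), removes a positive charge and weakens contacts between neighboring nucleosomes. It is commonly found over active genes, promoters and enhancers. The pan H4 antibody is directed against H4 whatever its modification, so that a pan H4 peak marks a place from which more H4-bearing DNA was recovered than from its surroundings. Total H3 does the same for the partner histone H3. H3K4me3 marks active and poised promoters, and H3K27me3 is the mark of Polycomb repression.

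H4K16Ac was listed in longer and fewer regions than pan H4. The H4K16Ac list was called in broad mode, which joins nearby enriched stretches, and the pan H4 list in narrow mode, so the difference in width cannot be told apart from the calling. The domains covered 196.1 Mb, 6.86% of the 2860.4 Mb spanned by the peaks on 433 sequences of the rn6 assembly, and the median domain was 794 bp wide (quartiles 439 and 1484 bp, widest 15768 bp). The pan H4 intervals covered 117.1 Mb with a median width of 477 bp. Both lists reach down to weak peaks: 84.7% of the domains and 84.9% of the intervals had a q-value of at most 0.05, and the highest q in either list was about 0.5. The number of reads per library is unknown from these lists. The background pileup is the number of fragments over an average base implied by the fold enrichments. It was 1.61 for H4K16Ac and 1.64 for pan H4, and 1.02 for total H3. The value for H4K16Ac is less certain, since its list gives averages over regions. Since each antibody and diet has 1 list, no spread between replicates can be given, no test was made, and the 95% Wilson intervals given below cover counting error only.

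With all listed peaks, most H4K16Ac domains held pan H4, and most of those held a single interval. At least 1 pan H4 interval lay in 129857 domains, or 74.7% (74.5 to 74.9), and 36.1% held one with a −log10 q of at least 5. Exactly 1 interval was found in 109667 domains (63.1%), 2 in 17249 (9.93%), 3 in 2579, 4 in 316, 5 in 40 and 6 in 6 domains, and 6 was the highest number. The mean was 0.883 intervals per domain with an SD over domains of 0.647. A single interval was thus the most frequent content, but 25.3% of domains held none and 11.6% held 2 or more, and no more than 2 of the 196878 intervals reached into a pair of domains. Pan H4 covered 44.9% of all bases in domains, and 75.2% of the pan H4 length lay there.

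Seen per length, pan H4 was concentrated in the H4K16Ac domains. By the centre of each interval, which takes out its width, there were 750 pan H4 intervals per Mb inside domains and 18.7 per Mb outside, a ratio of 40.1, and the ratio was 68.1 with a −log10 q of at least 5 in both lists. With all listed peaks, the ratio for total H3 was 76.3. A high density inside H4K16Ac domains was therefore seen with the H3 antibody as well, and the part that a shared recovery of histones has in the pan H4 value was not tested.

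The 43929 domains without pan H4 (25.3%) were short and weak. Their median width was 437 bp, against 785 bp with 1 interval, 2191 bp with 2, 3685 bp with 3 or 4 and 6419 bp with 5 or 6. Their median −log10 q was 1.74, against 3.33 in domains with 1 interval. From there the domain's −log10 q, which the peak caller averages over the whole domain, was 2.65 with 2 intervals and 2.36 with 3 or 4. The domains without pan H4 were also the least shared with other lists. Total H3 was found in 36.5% of them and in 80.6% of domains with 1 interval. H3K4me3 was found in 15.9% and 58.4%, and H3K27me3 in 4.99% and 35.7%. An HFD H4K16Ac domain overlapped 53.7% of the domains without pan H4 and 88.6% of those with 1 interval.

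Bulk histone peaks of the other lists were less frequent in these domains than elsewhere, but not absent. Of the 43929 domains, 25272 (57.5%, 57.1 to 58.0) held a total H3 interval of the control embryos or a pan H4 interval of the HFD embryos. HFD pan H4, with or without total H3, was found in 44.8%, against 77.2% of all control domains and 86.6% of those with 1 interval. Total H3, with or without HFD pan H4, was found in 36.5%, against 71.1% of all control domains. A further 18657 domains (42.5%) had neither, and 13168 of these also had no HFD H4K16Ac domain. These combined counts were not made over all control domains, so they give no comparison with them. From the domains without pan H4, the nearest control pan H4 interval was 3397 bp away at the median.

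Wider domains held more pan H4 intervals, but fewer for their length. The share of domains with pan H4 was 53.7% (53.2 to 54.1) in the 56017 domains under 500 bp, 82.4% in the 46576 domains of 500 to 1000 bp and 82.3% in the 46144 of 1000 to 2000 bp. It was 93.4% in the 23778 of 2000 to 5000 bp and 98.7% (97.9 to 99.2) in the 1271 of 5000 bp or more. The share was lowest in the narrowest domains and highest in the widest, and between the 2 classes on either side of 1000 bp the counting intervals overlapped. The mean number of intervals was 0.537, 0.830, 0.974, 1.54 and 2.47 in the 5 classes from narrow to wide. A domain of 3 or more intervals was nearly always a wide one, at 0.128% of domains of 1000 to 2000 bp, 9.58% of those of 2000 to 5000 bp and 47.5% of those of 5000 bp or more. Pan H4 intervals were at least 283 bp wide and at least 284 bp apart, so short domains have no room for 3. Over all 173786 domains, Spearman's rho between width and number was 0.493. The domains share their libraries and lie on the same chromosomes, and an overlap of 1 bp is met more easily by a longer region, so rho is a description.

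Density ran the other way. A single interval in a short domain gives a high density by the domain's size alone, and the part this has in the fall was not tested. The number of interval centres per Mb of domain was 1281 under 500 bp, 1120 from 500 to 1000 bp, 656 from 1000 to 2000 bp, 527 from 2000 to 5000 bp and 399 in the widest class, which is still far above the 18.7 per Mb outside domains. The share of bases covered by pan H4 was highest in domains of 500 to 1000 bp, at 65.9%, and was 46.7% below that width, 45.9% from 1000 to 2000 bp, 35.2% from 2000 to 5000 bp and 24.4% in the widest domains. Most of the length of the widest domains thus lay outside pan H4 intervals. With a −log10 q of at least 5 in both lists, the covered share was again highest from 500 to 1000 bp, at 79.4%, and was 74.99% from 1000 to 2000 bp and 40.4% in the 29 widest domains. With this rise and fall, rho between width and covered share was near 0 over all domains, at −0.05, and −0.35 among the 117769 domains of 500 bp or more. Over all domains its sign was not stable, and it was 0.0343 with the stricter threshold on both lists.

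**Figure D1:**
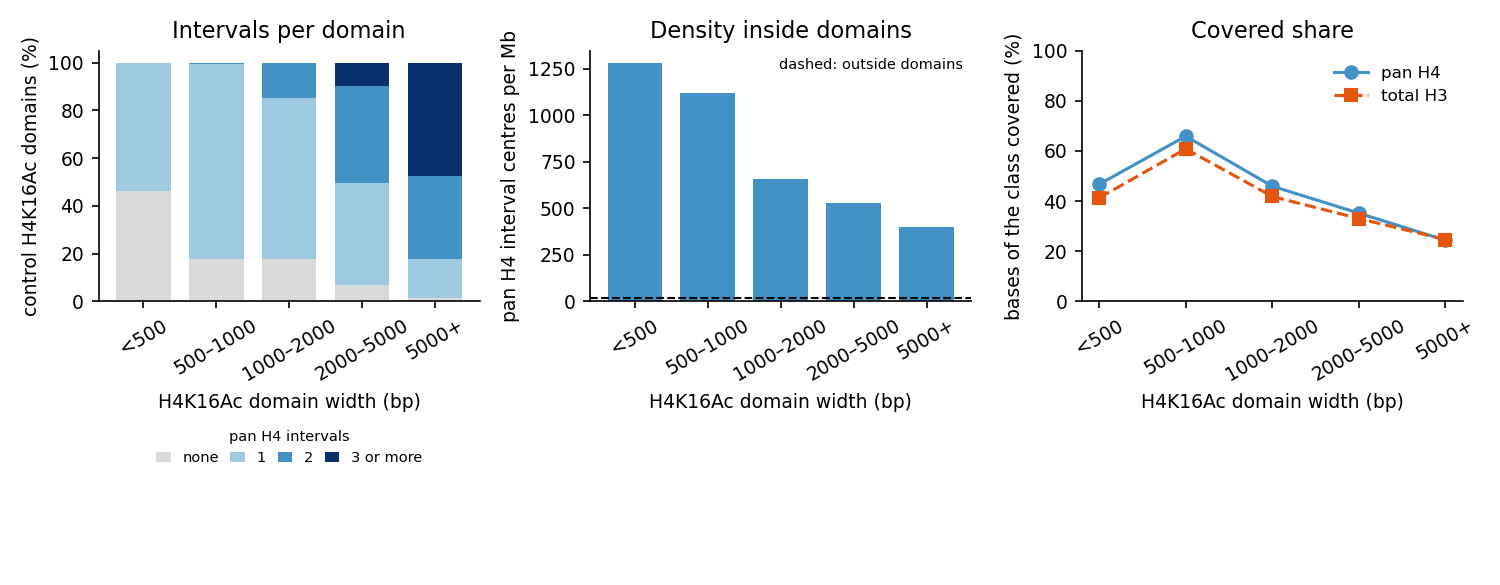
Pan H4 content of control H4K16Ac domains in 5 classes of domain width (bp). Left, stacked bars give the share of domains with no, 1, 2 and 3 or more pan H4 intervals; 3 or more make up 47.5% of the widest class. Middle, bars give pan H4 interval centres per Mb of domain, falling from 1281 to 399, with a dashed line at the 18.7 per Mb outside domains. Right, points give the share of all bases of the class covered by pan H4 (circles) and by total H3 (squares), both highest at 500 to 1000 bp.

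Total H3 showed the same course. It was present in 48.2%, 78.9%, 79.1%, 92.5% and 99.1% of domains from the narrowest to the widest class, with a mean of 0.482 intervals in the narrowest and 2.63 in the widest. It covered 60.8% of bases from 500 to 1000 bp and 24.6% in the widest class.

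Width and strength of the domain both moved with pan H4 content. Among domains under 500 bp, pan H4 was present in 33.7% of those with a −log10 q under 1.3, in 55.0% of those from 1.3 to 5 and in 80.8% of those of 5 or more. From 1000 to 2000 bp the corresponding shares were 49.95%, 83.9% and 99.4%, and from 2000 to 5000 bp they were 76.1%, 94.7% and 99.96%, where 2819 of 2820 strong domains held pan H4. Strong domains were thus nearly all occupied once they were wider than 500 bp, and weak ones became occupied mainly when they were wide. Over all domains, Spearman's rho of the covered share was 0.50 with the domain's −log10 q and −0.05 with its width. In strong domains of 500 to 1000 bp 87.6% of bases lay under pan H4, against 25.7% in weak domains of the same width. In the widest class the shares were 46.8% in the 29 strong domains and 19.9% in weak ones, so width counted among strong domains as well.

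Within short domains the pan H4 summit sat near the middle, and within long ones it did not. In domains with exactly 1 interval whose strongest summit lay in the domain (28385, 37167, 30292, 10055 and 206 domains by class), that summit fell in the middle 33.3% of the domain's length in 71.6% (71.1 to 72.1) of those under 500 bp and 60.0% of those from 500 to 1000 bp. It did so in 27.5% from 1000 to 2000 bp, 29.0% from 2000 to 5000 bp and 28.6% (22.9 to 35.2) in the widest. The median domain under 500 bp was 383 bp wide, and no pan H4 interval was narrower than 283 bp. In such short domains a central summit cannot be told apart from the sizes of domain and interval. In the class of 2000 to 5000 bp, 42.8% of the summits lay in the outer sixths, which make up 33.3% of the length. Over all summits of that class, the median distance from the nearer edge was 519 bp. In the outer sixths lay 32.8% of the summits from 1000 to 2000 bp and 35.9% of those in the 206 widest domains. A clear excess of lone pan H4 intervals toward the rim was therefore seen only from 2000 to 5000 bp. It cannot be told apart from the broad calling, in which joining stretches lie inside a domain and not at its ends.

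The wide domains were also richest in pan H4 at their rims, and this too cannot be told apart from the broad calling. In domains of at least 2000 bp there were 929 pan H4 summits per Mb in the outer 250 bp, 642 from 250 to 500 bp, 338 from 500 to 1000 bp and 434 from 1000 to 2000 bp inside the edge. The rim held the most summits per Mb but not the strongest. The median −log10 q of the interval was 3.15 in the outer 250 bp and 4.35 from 250 to 500 bp. Where a domain held the strongest summits of several intervals, a stricter rule than 1 bp of overlap, 21910 pairs of neighbors were 1290 bp apart from summit to summit at the median (quartiles 994 and 1676 bp), with 727 bp free of pan H4 between them.

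**Figure D2:**
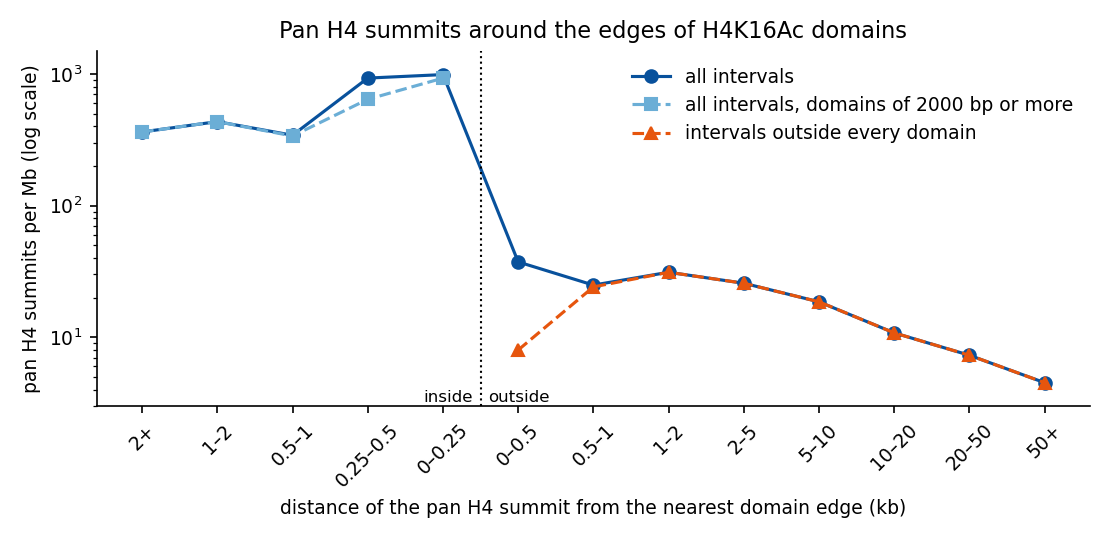
Pan H4 summits per Mb (log scale) against the distance of the summit from the nearest edge of a control H4K16Ac domain, in bins of unequal width (kb). Circles are all pan H4 intervals, squares the inside of domains of 2000 bp or more, and triangles the intervals that touch no domain. The density of all intervals drops from 989 per Mb in the outer 250 bp of domains to 37.3 per Mb in the 500 bp beyond the edge, and that of the triangles is highest at 1 to 2 kb, at 31.1 per Mb.

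The 13 domains named by rule show these patterns one by one, with positions in rn6. The widest domain, chr10:45371743-45387510, was 15768 bp long and had 4 pan H4 intervals, which covered 11.6% of it. The first lay 3515 to 4001 bp from the domain's start and was the strongest of the 4, with a fold enrichment of 2.50. The other 3 lay beyond 9565 bp with folds of 1.78, 1.99 and 1.89. Most of this domain thus lay outside pan H4 peaks, and total H3 covered 16.9% of it. A broad domain includes the stretches that join its enriched parts, so its bases are not each shown to be acetylated. The second widest, chr20:7149024-7161980 (12957 bp), had 6 intervals over 21.8% of its length, and between the fourth and the fifth, from 5099 to 10183 bp, there was no pan H4. The next 3 in width, chr4:126635162-126646947, chr1:100894619-100906195 and chr19:55710203-55721701, had 5, 4 and 4 intervals over 22.0%, 22.6% and 22.7% of their length. These 5 domains were chosen for their width in the control list, and the HFD list held 3, 2, 4, 5 and 3 H4K16Ac domains in the same stretches, which covered from 38.9% to 84.9% of their length.

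The domains with the most pan H4 were covered by it over 21.8% to 45.4% of their length. Of the 6 domains with 6 intervals, 1 is the chr20 domain above. The others were chr7:123213330-123222423 (9094 bp, 28.6% covered), chr10:105748554-105757311 (8758 bp, 40.6%), chr12:46900302-46908499 (8198 bp, 34.0%), chr18:28650828-28658027 (7200 bp, 45.4%) and chr19:25318711-25324163 (5453 bp, 42.2%). In the chr18 domain the strongest pan H4 interval was the last, at the far rim, with a fold enrichment of 4.33, and the other 5 had folds from 1.93 to 2.79. In the domain on chr10 the first interval led, with a fold of 3.904 against 1.67 in the last. On chr12 all 6 intervals had low folds, at 1.82 to 2.76. The last of them had a −log10 q of 4.07, above the median of 3.38 for all control pan H4 intervals. The chr18 and chr19 stretches lay wholly in 1 HFD domain each.

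The 3 widest domains without any control pan H4 were chr10:47941004-47949021 (8018 bp), chr12:44254282-44261185 (6904 bp) and chr12:47637627-47643902 (6276 bp). Their −log10 q values were low, at 0.959, 1.59 and 1.22. They were not empty in the other lists, and of all 1271 domains of 5000 bp or more 99.1% held total H3 and 99.7% held HFD pan H4. Control total H3 had 3, 3 and 2 intervals there, and HFD pan H4 had 4, 2 and 2, covering 29.2%, 16.3% and 21.1% of the length.

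**Figure D3:**
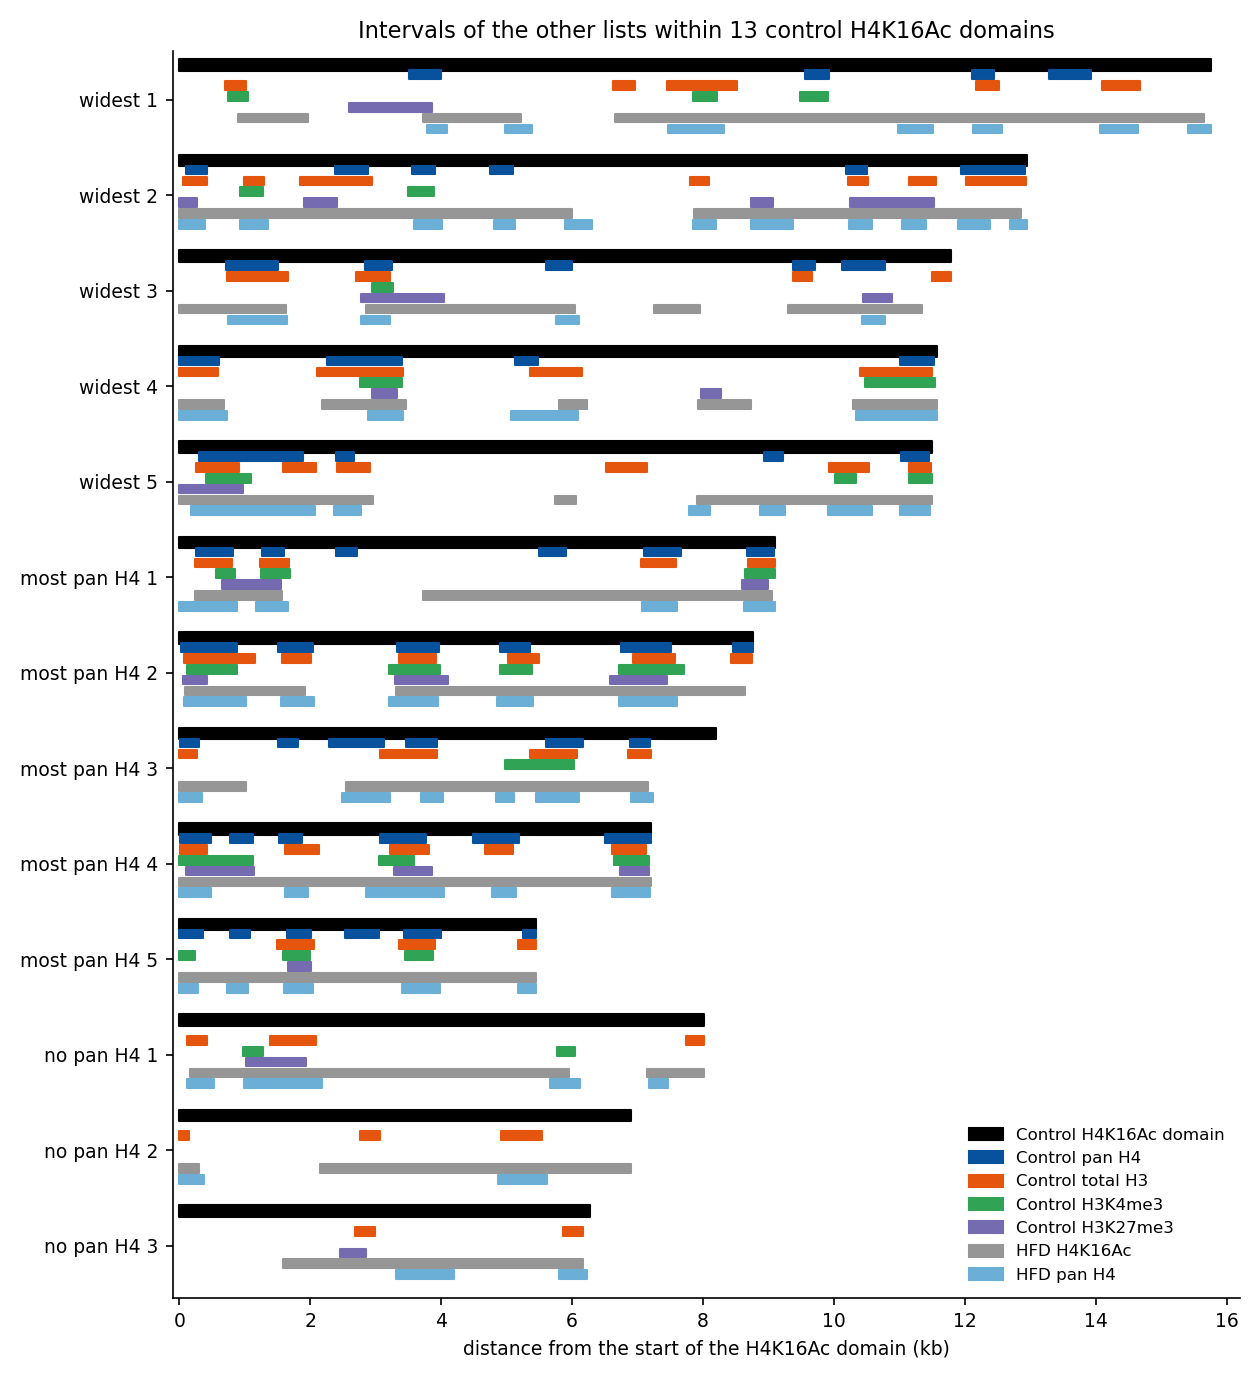
Maps of the 13 named control H4K16Ac domains, drawn to scale from the start of each domain (kb). The black bar is the domain, and the colored bars below it are the intervals of control pan H4, total H3, H3K4me3 and H3K27me3 and of HFD H4K16Ac and pan H4 inside it. Pan H4 occupies few islands in the 5 widest domains (11.6% to 22.7% of the length) and is absent from the last 3, which hold HFD pan H4.

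Pan H4 intervals outside acetylated domains were narrow and weak. They numbered 43478, or 22.1% (21.9 to 22.3) of all, against 153400 (77.9%) that touched a domain. The share depends on the thresholds, and was 80.5% when domains alone had to reach a −log10 q of at least 5 and 3.76% when pan H4 alone had to. Of those inside, 42.1% lay wholly in the domain and 96.6% had their strongest summit in it. The median width was 368 bp outside and 531 bp inside, the median fold enrichment 3.03 and 3.78, and the median −log10 q 1.81 and 4.20. Several summits in 1 interval were listed for 0.570% of the intervals outside and 14.6% of those inside. Read back to fragments at the list's background of 1.64, the median summit outside stood on 7 fragments from the 3 pooled libraries and that inside on 9. This reading gave a whole number, to within 0.01, for 50.2% of the outside and 21.8% of the inside intervals, and it is too low wherever the local background was higher.

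The share outside fell steadily with the strength of the interval. It was 49.9% (49.3 to 50.4) among intervals with a −log10 q under 1.3, then 32.1% from 1.3 to 3, 18.9% from 3 to 5, 6.604% from 5 to 10, 1.27% from 10 to 20 and 0.153% (0.105 to 0.224) at 20 or more, where 26 of 16976 intervals lay outside. Nearly every strong pan H4 interval therefore had an H4K16Ac domain of any strength on it, but often not a strong one. Of pan H4 intervals with a −log10 q of at least 5, 3.76% lay outside all domains and 51.6% outside the domains of at least 5. The same fall, from 36.6% to 0.119%, was seen for control total H3. By width, 33.4% of the intervals under 500 bp lay outside, as did 11.5% of those from 500 to 1000 bp, 1.71% of those from 1000 to 2000 bp, and 2 of 1145 wider ones.

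Intervals outside domains also shared less with the other lists, and this held within each class of strength. Control total H3 overlapped 18.6% of the intervals outside and 76.5% of those inside, H3K4me3 12.1% and 53.0%, and H3K27me3 4.35% and 34.1%. HFD pan H4, which comes from other libraries, was found at 26.2% and 83.2%. Among intervals with a −log10 q from 5 to 10, HFD pan H4 was found at 57.3% of those outside and 93.0% of those inside. Total H3 was found at 44.5% and 86.0% of the same intervals, and H3K4me3 at 26.9% and 61.9%. In the class of 10 to 20 the shares for H3K4me3 were 42.4% of 198 outside and 87.7% inside. Within a class of strength the 2 sets thus still stood apart, but they were not matched for width or for strength inside the class. The intervals outside were narrower, and an overlap of 1 bp is met more easily by a longer interval.

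**Figure D4:**
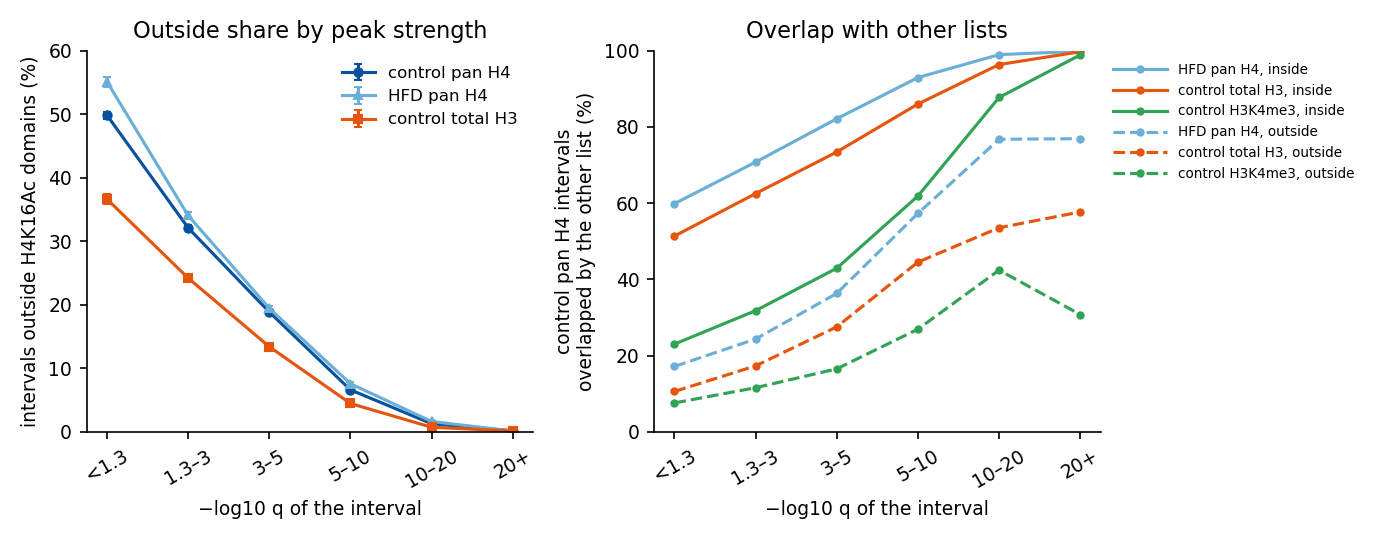
Left, share of intervals outside H4K16Ac domains (%) by the −log10 q of the interval, for control pan H4, HFD pan H4 in HFD domains and control total H3, with 95% Wilson intervals. All 3 fall, control pan H4 from 49.9% to 0.153%. Right, share of control pan H4 intervals (%) that overlap HFD pan H4, control total H3 or control H3K4me3, for intervals inside (solid lines) and outside (dashed lines) control domains. The dashed line of each list lies below its solid line in each class; the last class holds 26 intervals outside.

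Most of the intervals outside stood alone. Of the 43478, 30896 (71.1%) met none of control total H3, H3K4me3 and H3K27me3, against 16.6% of those inside and 28.7% of all pan H4 intervals, and 6051 (13.9%) met total H3 only. H3K4me3 without H3K27me3 or total H3 was found at 3161 (7.27%), and 264 met all 3. The counts for total H3 only, H3K4me3 only and all 3 were not made over the other pan H4 intervals, so they give no comparison. The median −log10 q was 1.81 where none was met and 3.92 where all 3 were. An H4K16Ac domain of the HFD embryos overlapped 13037 of the 43478 intervals outside (29.99%), against 88.1% of those inside. Both an HFD domain and an HFD pan H4 interval were found at 7297 (16.8%), against 78.7% inside. Neither was found at 26344 (60.6%). That count was not made for the intervals inside, of which 88.1% had an HFD domain and 83.2% an HFD pan H4 interval. Some of the pan H4 without an acetylated domain in control cortex thus had one in the list of the other diet, and the part that the thresholds of the lists have in this was not tested.

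Pan H4 outside domains still lay nearer to them than the rest of the genome outside domains did. The median gap to the nearest domain was 3410 bp (quartiles 1456 and 8205 bp). The median gap between neighboring domains was 6004 bp, which is a whole gap and no measure of the distance to the nearest edge. Within 5000 bp of a domain lay 61.4% of these intervals but 40.8% of the bases outside domains. Within 1000 bp the shares were 15.6% and 12.7%. The density of their summits was 7.99 per Mb in the first 500 bp beyond an edge, 24.1 from 500 to 1000 bp, 31.1 from 1000 to 2000 bp, 18.6 from 5 to 10 kb and 4.51 at 50 kb and more. It was thus highest at 1000 to 2000 bp and declined from there. Closest to the edge it is held down by the rule itself, since an interval that reaches the domain counts as inside, and 5091 such intervals had their summit in the first 500 bp beyond an edge. No 2 domains were closer to each other than 1194 bp.

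A few strong intervals had no acetylation peak. The highest was chr2:55921228-55921526, with a fold enrichment of 23.7, a −log10 q of 121.1 and a distance of 8034 bp from the nearest domain. It also had a total H3 interval of fold 24.4 and an H3K4me3 interval of fold 14.8. Next came chr18:60952903-60953200 (fold 17.4), chr9:81148951-81149498 (15.9), chr17:87224295-87224643 (16.6) and chr12:43898270-43898627 (12.7), between 2011 and 4844 bp from a domain. None of these had control H3K4me3. Control total H3 was listed on those of chr18 (fold 19.5) and chr9 (7.30), and H3K27me3 on that of chr9 (4.36). Those of chr17 and chr12 had no control total H3 or H3K27me3. HFD total H3 was listed on those of chr18 (fold 21.05), chr9 (15.15) and chr17 (15.92), and not on those of chr2 and chr12. All 5 were narrow, from 298 to 548 bp, with 1 summit each. All 5 had an HFD pan H4 interval of higher fold, at 24.5, 21.2, 21.1, 19.4 and 16.6 in the same order. An HFD H4K16Ac domain was listed on those of chr2, chr9 and chr12, with folds of 12.9, 6.25 and 5.53, and none on the other two.

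On chromosomes 1 to 20, X and Y, the 3 intervals farthest from a domain lay on chr13 and chr4. They were chr13:39714698-39715154, at 227120 bp from the nearest domain, and chr4:94528087-94528559 and chr4:94565800-94566116, at 209637 and 207337 bp. Their folds were low, at 2.27, 2.27 and 2.65, but pan H4 far from domains was not weaker in general. The 963 intervals with a summit at 50 kb and more had a median −log10 q of 2.46, against 1.81 for all intervals outside. Of the 3 farthest, none had an HFD pan H4 interval or a control total H3, H3K4me3 or H3K27me3 interval. The interval on chr13 had an HFD H4K16Ac domain of fold 2.54.

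The share of domains holding pan H4 varied less between chromosomes than the share of pan H4 outside. Over chromosomes 1 to 20, X and Y, the share of domains holding pan H4 was between 72.6% (Y, 73 domains, 61.4 to 81.5) and 76.1% (chromosome 20), and the mean number per domain between 0.795 (Y) and 0.949 (chromosome 12). The share of pan H4 outside was lowest on chromosome 12, at 16.9% (16.03 to 17.7), and highest on X, at 26.99% (25.7 to 28.3). Domains took up 17.0% of the span of chromosome 12 and 2.25% of that of X. The more of a chromosome's span lay in domains, the smaller was its share of pan H4 outside, with a Spearman's rho of −0.91 over 22 chromosomes and −0.94 without Y. The share of domains holding pan H4 went up with the share of the span in domains, with a rho of 0.64. A chromosome with more of its span in domains also has less space outside them. Per length the order was the reverse, and chromosome 12 had 35.1 intervals per Mb outside domains and X had 8.47. X thus had few domains, few pan H4 intervals outside them and the most inside them per Mb of domain, at 874, against 669 on chromosome 12. On X and Y rho between width and covered share was positive, at 0.10 and 0.17, and on each of chromosomes 1 to 20 it was negative.

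**Figure D5:**
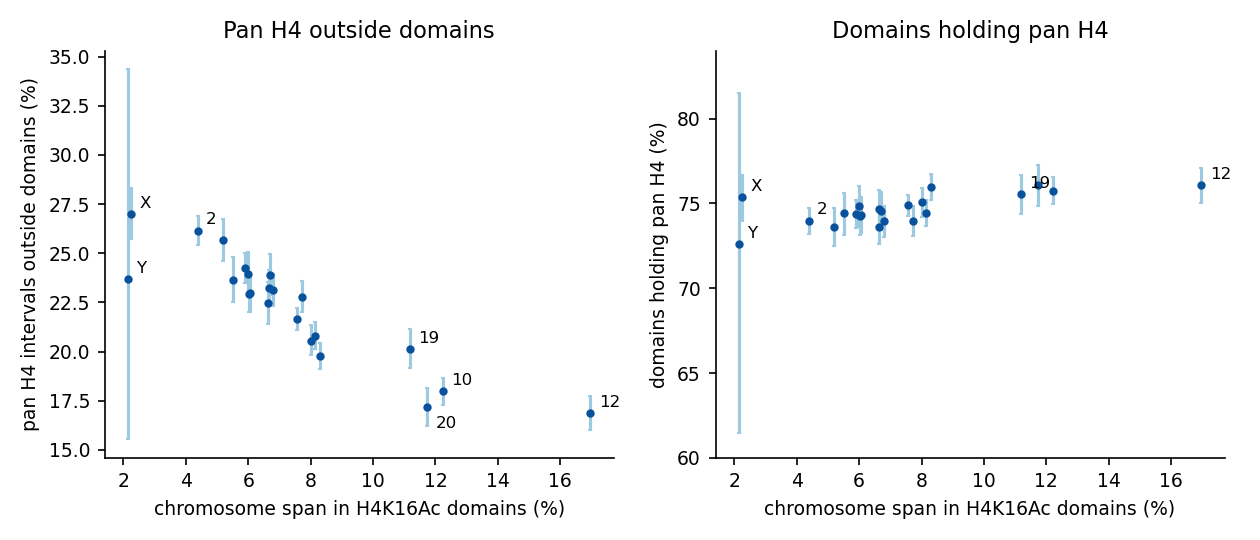
Share of pan H4 intervals outside control H4K16Ac domains (left, %) and of domains holding pan H4 (right, %) against the share of the chromosome's span in domains (%), 1 point for each of 22 chromosomes with its 95% Wilson interval. The left share falls from 26.99% on X to 16.9% on chromosome 12, while the right one lies between 72.6% and 76.1%. The vertical axes do not start at 0.

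In the HFD embryos the same relation held, with closer overlap over all listed peaks but not at like strength of the interval. Of 174862 HFD H4K16Ac domains, 79.1% (78.9 to 79.3) held HFD pan H4, against 74.7% in control, the mean was 0.954 intervals per domain against 0.883, and 15.5% of HFD pan H4 lay outside domains against 22.1%. The difference by class was largest in the narrowest domains, at 62.4% against 53.7%, and in the number per domain in the widest, at 3.25 against 2.47. The HFD pan H4 list was the stronger one, with a median −log10 q of 6.18 against 3.38 in control and a background pileup of 1.80 against 1.64. With either set of domains, the HFD pan H4 list gave the higher share. Control domains against HFD pan H4 gave 77.2% holding and 17.7% outside, and HFD domains against control pan H4 gave 72.7% and 24.7%. With total H3 in place of pan H4, the shares holding were 71.1% in control and 72.2% in HFD. The share of total H3 outside went the other way from that of pan H4, with 13.2% in control and 15.0% in HFD. The ratio of total H3 densities inside and outside was 76.3 in control and 68.4 in HFD. With 1 list per diet, a difference between diets cannot be told apart from one between lists.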

How the data were processed

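Reads of the ChIP-seq libraries were aligned by the authors to rn6 with Bowtie2, and peaks were called with MACS2. The paper's methods name the recommended options of the caller, and the exact settings, the handling of duplicates, the use of an input and the program versions are not given in the sources used here. In the deposited lists, fold enrichment is a ratio over the background around the peak, and significance stands as −log10 p-value and −log10 q-value. In narrow lists (pan H4, total H3, H3K4me3) these values and the deposited summit offset (another measure, in bp) belong to the summit. In broad lists (H4K16Ac, H3K27me3) they are averages over the region. The third total H3 library of the control group, whose labels name both diets, was counted as control, following its title.

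Lines of 1 narrow interval with several summits were joined (224758 lines, 196878 intervals), and the strongest summit was kept. Counts, overlaps, covered bases, gaps and rank correlations were computed with Python 3.11.15, numpy 2.4.6, pandas 2.3.3 and scipy 1.17.1, and tested on simulated intervals. Figures were drawn with matplotlib 3.10.9. Outside space was the span of each sequence, up to its last peak in any list, less the domains, and includes assembly gaps. The background pileup b was taken from the most frequent fold enrichment, which MACS2 writes as (pileup + 1) / (b + 1). In broad lists the fold enrichment is an average over the region, so this formula need not hold there.

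By rule, on chromosomes 1 to 20, X and Y, the 5 widest domains, the 5 with most pan H4 (ties by chromosome and start), the 3 widest without pan H4, and the 5 strongest and 3 farthest pan H4 intervals outside were named. The comparison and its lists were chosen with earlier results of these data known. The files are in rn6 and the gene tables at hand describe another assembly, so gene names, start sites and sequences were not used here. The alternatives were stricter q-values, joined domains, summits as the unit, overlap by summit or by 50% of the interval, and main chromosomes only.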

Additional observations from a re-analysis of the deposited data

How the results depend on the processing

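With 1 pooled list per antibody, no library could be left out. For the same reason no paired analysis was possible, and no result comes from a test. Of 51 alternatives, 7 gave the identical value, 6 of them by joining domains less than 1000 bp apart, which none were. Of the other 44, 25 left a value within its counting interval or, for means, ratios and rho, within 1.5 times, and the mean number per domain and rho between width and number did so in each of theirs. The share of domains holding pan H4 (74.7%) was 75.9% at q of at most 0.05 in both lists, 72.7% with the summit and 71.8% with 50% of the interval inside, and 85.2% at a −log10 q of at least 5 in both. The share of pan H4 outside (22.1%) was then 23.3%, 24.7%, 25.6% and 51.6%, and 19.5% with every summit counted. The last threshold kept 21.5% of the domains and 34.4% of the pan H4 intervals. With it on domains alone, 96.2% held pan H4 and 80.5% of pan H4 lay outside, and with it on pan H4 alone the shares were 36.1% and 3.76%. The ratio of densities was 68.1 with it on both lists, and rho between width and covered share (−0.05) turned to 0.0343. That rho was −0.35 for domains of 500 bp or more. Joining at 3000 bp gave 80.5% holding, 21.3% outside and a rho of −0.18 with covered share. The thresholds on a single list, the 500 bp limit and the joining at 3000 bp were added after seeing the data.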
